A study of Homo sapiens with 18 samples.

Results

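The transcriptome of A375 cells exposed to 0.63 µM IMD-0354 for 24 h was compared with that of cells left untreated for 24 h, using 3 libraries from each of these groups, 6 of the 18 libraries in the series. A375 is a long-established cell line from a human melanoma with mutant, active BRAF. IMD-0354 is a small molecule that is known to inhibit IKKβ, a kinase of NF-κB signalling. The other groups received 0.32 or 1.25 µM for 24 h, received 0.63 µM for 48 h, or were left untreated for 48 h, so that 0.63 µM was the middle of 3 doses at 24 h. The libraries came from the 3′ ends of polyadenylated transcripts in total RNA of cells plated at 50% confluency one night before dosing. The genes described were the 14936 that reached 1 TPM in at least 3 of the 18 libraries, out of 60504 identifiers. TPM are levels per transcript length that sum to the same fixed total in each library. No vehicle is named for the untreated cells. The labels do not say whether the 3 libraries of a group were grown separately. The p-values therefore rest on the spread between samples that may be technical repeats.

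Cells answer a shortage of amino acids, misfolded protein in the endoplasmic reticulum or mitochondrial faults through the integrated stress response, in which kinases phosphorylate the initiation factor eIF2α, general translation slows and translation of the transcription factor ATF4 goes up. ATF4 and its partners of the C/EBP family then induce genes for amino acid synthesis and import, tRNA charging, feedback on eIF2α and, when stress lasts, the factor CHOP. The heat shock response is a separate program, in which HSF1 induces cytosolic chaperones. IKKβ phosphorylates IκBα and so frees NF-κB, which induces cytokine genes and its own inhibitors.

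Between 14647 and 15975 genes were above 0 in a 0.63 µM library, against 15198 to 16408 in an untreated library. TPM keep no read numbers, so the depth of each library, and the precision that it allows, is unknown. Pearson's r between the 6 libraries ran from 0.874 to 0.948 across genes, which are not independent replicates. The mean r of a library to its own group was 0.931 to 0.941 at 0.63 µM and 0.907 to 0.929 in untreated cells, lowest in untreated replicate 2. In that library 10 of 1985 genes with a group median of at least 50 TPM lay at least 8-fold below both other untreated libraries. One of them was GAPDH, which stood at 508, 549 and 399.65 TPM at 0.63 µM and at 433, 25.5 and 578 TPM in untreated cells. At 0.63 µM replicate 3 differed most from its group, with mitochondrial transcripts at 3.61% of TPM against 7.84% and 8.18% in replicates 1 and 2, while untreated libraries held 6.22%, 4.95% and 3.23%. A set of 4 abundant non-coding transcripts of chromosome 21 took 14.2% to 14.3% of TPM at 0.63 µM and 20.2%, 14.4% and 19.7% in untreated replicates 1, 2 and 3. Among melanocyte lineage markers SOX10, MITF, MLANA and S100B passed the filter of 1 TPM in at least 3 of the 18 libraries. TYR, PMEL and DCT did not, and they stayed at or under 1.46 TPM in the 6 libraries compared. All 7 together summed to 26.9 to 34.3 TPM at 0.63 µM and 21.8 to 54.8 TPM in untreated cells. Keratinocyte markers summed to 46.7 to 64.6 against 39.2 to 47.1 TPM, nearly all KRT10. Marker sums of fibroblasts, leukocytes and endothelial cells stayed at or under 3.40 TPM in every one of the 6 libraries.

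After 24 h at 0.63 µM, 8 of 14 measured genes of the integrated stress response and 6 of 18 of amino acid synthesis were called higher than in untreated cells. Lower calls included 7 of 22 cytosolic chaperone genes, 2 of 18 members of the histone list and some cell cycle genes. Limma on log2(TPM + 1), fitted to all 18 libraries with 1 mean per group, called 203 genes higher (1.36% of those tested) and 123 lower (0.824%) at a Benjamini-Hochberg adjusted p under 0.05, 2.18% in all. Fold changes below are log2 values of 0.63 µM over untreated on that scale, which understates the change of genes with low levels. The change was at least 2-fold for 146 of the genes called higher and 92 of those called lower. The groups did not overlap for 325 of the 326 called genes, and they did not overlap upward for 1500 genes tested (10% of all) or downward for 1383 (9.26%). The median change over all genes was 0.00, with quartiles at -0.34 and 0.37. In bulk RNA, fewer cells of a type and less RNA per cell cannot be told apart.

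**Figure D1:**
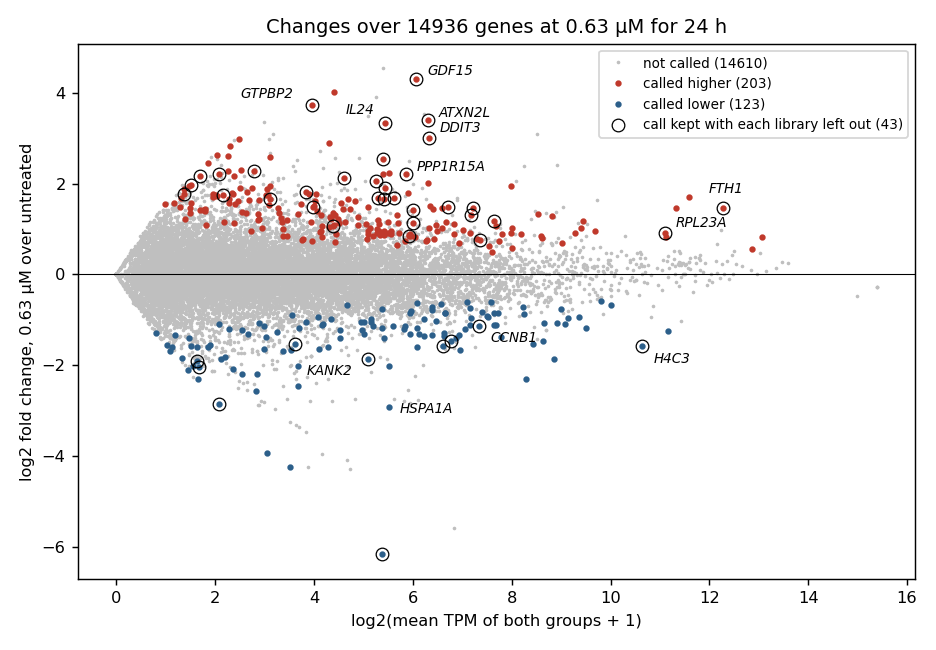
Log2 fold change of each tested gene, 0.63 µM over untreated at 24 h, against the log2 of its mean TPM plus 1, with called genes in red (203 higher) and blue (123 lower) and rings around the 43 calls kept with each library left out. Among the labelled genes GDF15, GTPBP2 and ATXN2L sit highest, and S100P (4.02), not labelled, lies between GDF15 and GTPBP2. RNU6-1016P, listed at 0 in all treated libraries, sits at the bottom.

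The number of calls rested on single libraries. It fell to 51 without 0.63 µM replicate 3, to 142 without 0.63 µM replicate 1 or untreated replicate 2 and to 161 without 0.63 µM replicate 2, and it was 238 without untreated replicate 1 and 490 without untreated replicate 3. The calls of 33 genes higher (0.221% of genes tested) and 10 genes lower (0.067%) were kept in all 6 of these refits, in each of which one group had 2 libraries. With only the 6 compared libraries in the fit 0 genes passed in limma, while 1809 had an unadjusted p under 0.05. Rescaling TPM without the 4 abundant chromosome 21 transcripts gave 147 genes higher and 183 lower, so the share called higher was 44.5% in place of 62.3%. The share of genes called grew with level, at 0.53% of 4152 genes under 2 TPM and 8.23% of 462 genes at 250 TPM or more.

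**Figure D2:**
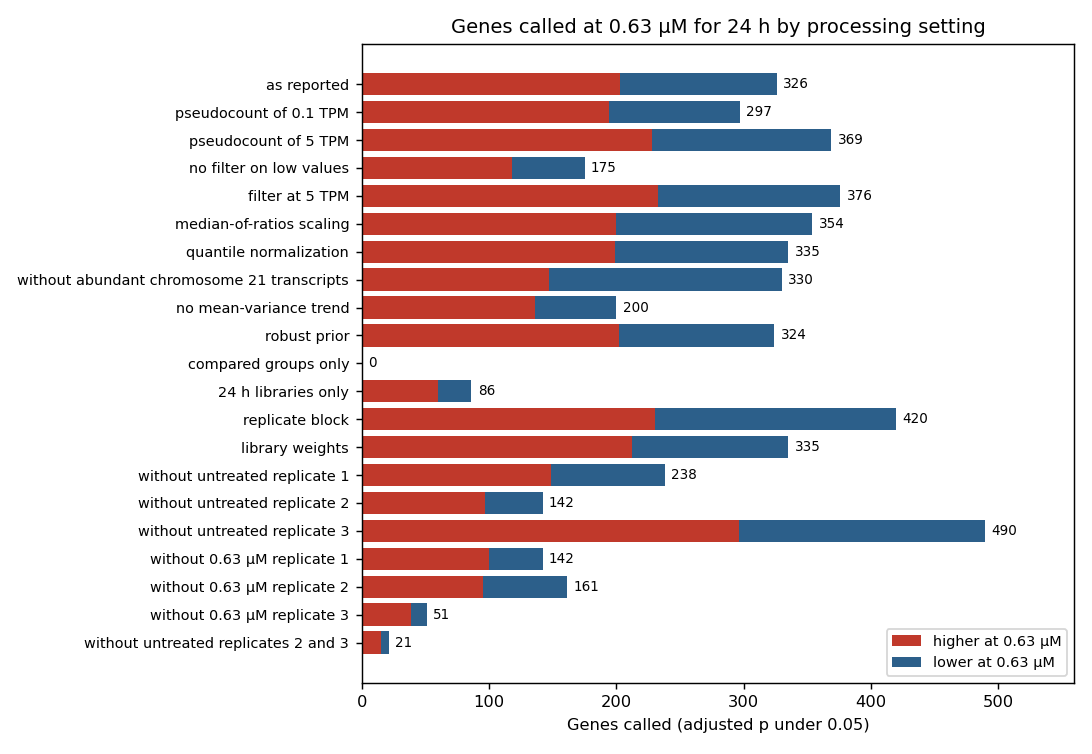
Number of genes called at 0.63 µM for 24 h (bars, split into higher in red and lower in blue) under each processing setting and with each library left out. The count as reported is 326, and it runs from 0 with the compared groups only to 490 without untreated replicate 3.

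Factors and feedback genes of the integrated stress response rose in many members. Of 14 measured members 8 rose and 0 fell, with a median change of 1.5. DDIT3 (ENSG00000175197, chr12:57516588-57521737, minus strand, GRCh38), the gene of CHOP, stood at 91.9, 83.7 and 256 TPM at 0.63 µM, against 18.35, 14.0 and 12.45 TPM in untreated cells. Every treated library lay above every untreated one, and replicate 3 lay far above the other two treated libraries. The change was 3.01 (SE 0.356, limma adjusted p = 0.000407). PPP1R15A (ENSG00000087074, chr19:48872392-48876057, plus strand), which encodes GADD34 and directs the phosphatase that resets eIF2α, stood at 80.5, 83.5 and 121 TPM, against 23.0, 17.45 and 18.5 TPM. Its change was 2.20 (SE 0.178) with the smallest limma adjusted p of all genes tested, 1.84e-05, and both groups were tight. TRIB3, a pseudokinase that restrains ATF4 and CHOP, stood at 52.6, 63.01 and 65.9 TPM, against 16.8, 9.91 and 15.4 TPM (change 2.06, SE 0.222, limma adjusted p = 0.000177).

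GTPBP2 (ENSG00000172432, chr6:43605316-43629162, minus strand), a GTPase that acts on stalled ribosomes, was barely detected in untreated cells, at 0.77, 0.29 and 3.21 TPM, and stood at 19.8, 28.4 and 35.1 TPM at 0.63 µM (change 3.72, SE 0.443, limma adjusted p = 0.000407). CHAC1, which degrades glutathione, stood at 37.2, 28.8 and 29.4 TPM, against 11.3, 0.16 and 4.88 TPM. The treated libraries of CHAC1 were close together and the untreated ones were spread over a wide range (change 2.90, SE 0.570, limma adjusted p = 0.0176). CEBPB and CEBPG, which encode partners of ATF4, rose by 1.66 and 1.34, and NUPR1, a small stress-induced chromatin protein, rose by 1.72. The gene of ATF4 itself, which is governed mainly through translation, stood at 332, 315 and 314 TPM, against 217, 329 and 203 TPM, and did not pass (change 0.39, limma adjusted p = 0.222). ATF3 overlapped between the groups, at 15.04, 13.8 and 7.65 TPM against 10.8, 11.1 and 12.2 TPM, and ATF5, PPP1R15B, JDP2 and VLDLR did not pass either. The calls of DDIT3, PPP1R15A, TRIB3, GTPBP2 and CEBPB were kept with each library left out. The adjusted p of CHAC1 ran from 0.00254 to 0.0797 over the 6 refits, with losses without 0.63 µM replicates 1 and 3.

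None of the 13 measured genes upstream of ATF4 passed, where the share of all genes called, 2.18%, would give fewer than 1 call. They comprise the eIF2α kinases, the mitochondrial stress relay and the subunits of eIF2B, and their median change was -0.01. EIF2AK3, the kinase PERK, had a change of 0.69 (limma adjusted p = 0.30) and GCN1, the activator of the kinase GCN2, a change of -0.91 (adjusted p = 0.102).

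**Figure D3:**
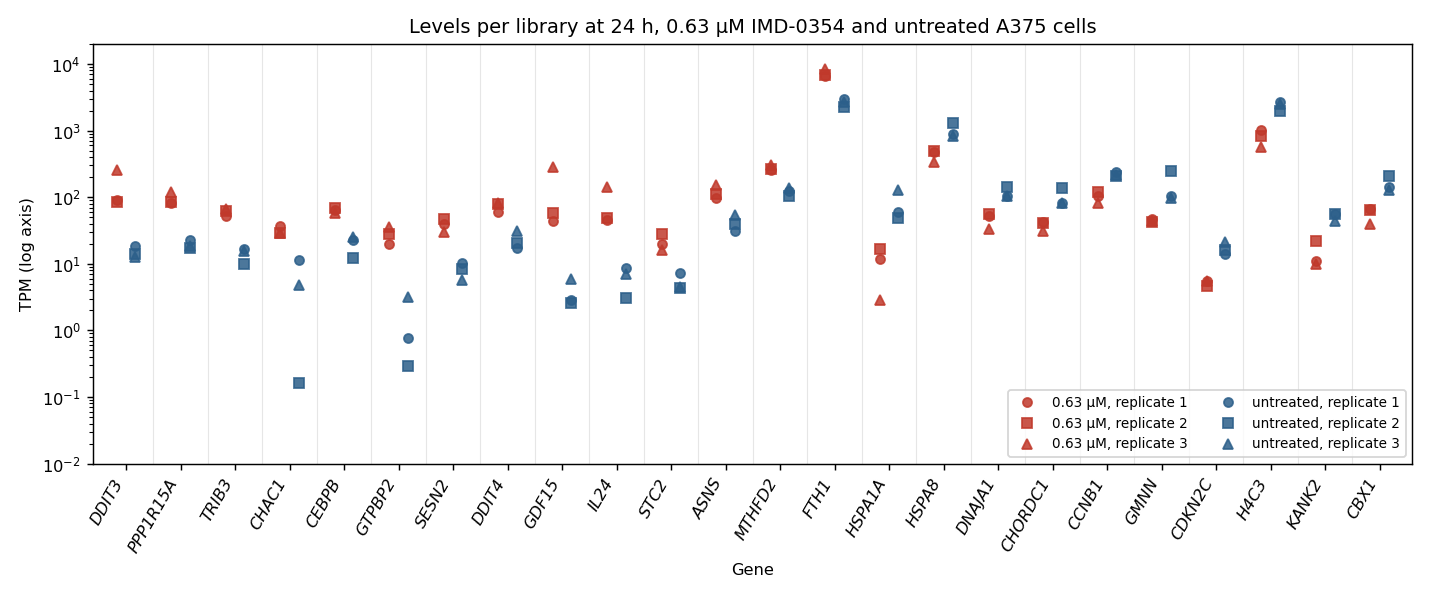
TPM on a log axis in each library of 24 genes, with 0.63 µM (red) left of untreated (blue) and a symbol per replicate number. The stress response and amino acid genes on the left sit higher at 0.63 µM and the chaperone and cell cycle genes on the right sit lower, as for DDIT3 at 83.7 to 256 against 12.45 to 18.35 TPM.

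Enzymes that make serine, one-carbon units, asparagine and proline moved the same way. Of 18 measured members 6 rose and 0 fell, with a median of 0.94. MTHFD2, a mitochondrial enzyme of one-carbon metabolism, stood at 252, 267 and 308 TPM at 0.63 µM, against 123, 104 and 138 TPM in untreated cells (change 1.175, SE 0.190, limma adjusted p = 0.0057). ASNS (chr7:97852118-97872542, minus strand), asparagine synthetase, stood at 96.8, 110 and 150 TPM, against 31.1, 40.01 and 54.6 TPM. The groups of both genes did not overlap. ASNS changed by 1.5 (SE 0.272, limma adjusted p = 0.0127), PCK2, which feeds mitochondrial oxaloacetate into phosphoenolpyruvate, by 1.52, and CBS, the first enzyme of transsulfuration, by 1.65. GPT2 and SHMT2, an alanine transaminase and the mitochondrial serine hydroxymethyltransferase, rose by 1.13 and 0.82. With 1 library left out the list held 1 call without 0.63 µM replicate 3, 3 without either other treated library or untreated replicate 1 or 2, and 9 without untreated replicate 3. MTHFD2 was kept in all 6 refits. The adjusted p of ASNS ran from 0.00862 to 0.0797, the highest without 0.63 µM replicate 3.

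Genes of amino acid import and tRNA charging held 4 calls. Of 15 measured transporters SLC1A4, a carrier of serine and alanine, rose (5.69, 6.50 and 6.40 TPM, against 1.51, 1.01 and 1.85 TPM, change 1.56, limma adjusted p = 0.0120), and the median was 0.31. Of 20 cytosolic tRNA synthetases 3 rose with a median of 0.36, namely those for isoleucine (IARS1, 1.01), alanine (AARS1, 0.92) and glycine (GARS1, 0.88). GARS1 stood at 360, 341 and 423 TPM, against 186, 206 and 217 TPM. These 3 calls were less steady, and the list held 0 calls without untreated replicate 1 or 0.63 µM replicate 3 and 6 without untreated replicate 3. SLC1A4 was lost without 0.63 µM replicate 3 alone, with an adjusted p from 0.0140 to 0.0610 over the 6 refits.

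The promoters of CHAC1 and ASNS show the element through which ATF4 and C/EBP factors are known to bind such genes. The 250 bases upstream of their RefSeq starts (GRCh38.p14) are given 5′ to 3′ on the strand of the gene, with matches to TGATGNAA on either strand in capitals, for CHAC1 at chr15:40953221-40953470, plus strand, and for ASNS at chr7:97872409-97872658, minus strand.
CHAC1: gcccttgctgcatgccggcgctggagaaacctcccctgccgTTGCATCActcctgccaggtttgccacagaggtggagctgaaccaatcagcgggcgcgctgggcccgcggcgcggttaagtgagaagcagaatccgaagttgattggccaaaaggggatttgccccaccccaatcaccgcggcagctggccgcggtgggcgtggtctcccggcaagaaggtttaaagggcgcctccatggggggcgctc
ASNS: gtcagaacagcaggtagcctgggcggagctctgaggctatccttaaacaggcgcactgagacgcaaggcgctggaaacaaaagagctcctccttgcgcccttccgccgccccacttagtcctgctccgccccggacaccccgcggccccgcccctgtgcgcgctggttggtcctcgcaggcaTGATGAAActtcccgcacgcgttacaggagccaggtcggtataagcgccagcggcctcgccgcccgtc
The match begins 209 bases before the start in CHAC1, on the opposite strand, and 68 bases before it in ASNS. In windows from 250 bases before to 50 after the start, these letters occurred in 1003 of 27305 RefSeq promoters (3.67%) and in 175 of the 10093 matched to tested genes (1.73%). They occurred in 6 of 133 matched genes called higher (4.51%) and 1 of 86 called lower (1.16%). By list, they stood in 3 of 13 integrated stress response genes, 3 of 12 amino acid synthesis genes, 3 of 14 transporters and 6 of 16 tRNA synthetases. AARS1 and IARS1 were among the last, with matches 187 and 13 bases before their starts. Most matches on these lists belonged to genes that did not pass. These were ATF3, PPP1R15B, MTHFD1L, GOT1, SLC7A1, SLC3A2, SLC38A1, CARS1, MARS1, NARS1 and TARS1, so no transporter with a match passed. A match is a description of letters and not of binding, and DDIT3 and PPP1R15A had none in this window.

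Sensors that report stress to the growth kinase mTORC1 included 2 of the steadiest calls. SESN2, a leucine-binding inhibitor of the GATOR2 complex, stood at 39.2, 47.1 and 29.7 TPM at 0.63 µM, against 10.3, 8.24 and 5.72 TPM (change 2.13, SE 0.285, limma adjusted p = 0.00125). DDIT4, the gene of the mTORC1 inhibitor REDD1, stood at 61.0, 78.8 and 80.5 TPM, against 17.5, 20.3 and 30.7 TPM (change 1.67, SE 0.214, adjusted p = 0.000881). Both calls were kept with each library left out, and the other 14 measured members of the list did not pass. Of 14 stress granule genes, whose proteins gather stalled messenger RNA, ATXN2L rose and 0 fell. ATXN2L (chr16:28823035-28837237, plus strand) stood at 77.5, 121 and 234 TPM, against 11.2, 20.2 and 6.47 TPM, a change of 3.39 (SE 0.547, limma adjusted p = 0.0057). The median over the list was -0.40, and 4 of its members had a positive change.

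Secreted factors held some of the largest changes. Of 24 measured cytokine and growth factor genes 6 rose and TGFA fell, with a median of 0.51. GDF15 (ENSG00000130513, chr19:18374731-18389176, plus strand), a stress hormone of the TGF-β family, stood at 43.7, 57.0 and 284 TPM at 0.63 µM, against 2.90, 2.54 and 5.96 TPM (change 4.30, SE 0.576, limma adjusted p = 0.00125). IL24, of the IL-10 family, stood at 45.2, 49.2 and 141 TPM, against 8.73, 3.08 and 6.94 TPM (change 3.34, SE 0.388, adjusted p = 0.000407). As with DDIT3, replicate 3 was the highest treated library of both genes by a wide margin. STC2, the glycoprotein stanniocalcin 2, rose by 1.82, BMP2, a bone morphogenetic protein, by 1.67, LIF, a cytokine that signals through gp130, by 2.28, and the chemokine gene CXCL3 by 1.75. TGFA, a ligand of the EGF receptor, stood at 2.41, 2.05 and 1.31 TPM, against 6.58, 6.23 and 4.37 TPM (change -1.21, limma adjusted p = 0.0242). INHBA, AREG and VEGFA were well expressed and did not pass. GDF15, IL24, STC2 and BMP2 were kept in all 6 refits, and TGFA in 2. LIF was lost without untreated replicate 2 and 0.63 µM replicate 3 (adjusted p from 0.0154 to 0.0865), and CXCL3 held in 1 refit (0.0289 to 0.121).

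NF-κB genes, which lie in the pathway of the kinase that IMD-0354 is known to inhibit, were called at a share near that of all genes (2.18%), so their counts show nothing about the pathway. Of 17 measured subunits, inhibitors and IKK kinases 0 passed in limma, with a median of 0.20. IKBKB, the gene of IKKβ, stood at 14.2, 10.8 and 12.1 TPM at 0.63 µM, against 7.42, 5.14 and 16.7 TPM, and the groups overlapped (change 0.45, SE 0.479, adjusted p = 0.674). NFKBIA, which encodes IκBα and is itself an NF-κB target, stood at 18.03, 17.5 and 19.6 TPM, against 23.8, 30.9 and 18.3 TPM (change -0.36, SE 0.274, adjusted p = 0.538). The values were 0.39 for CHUK, -0.37 for IKBKG, 0.20 for RELA and 0.04 for NFKB1, with adjusted p from 0.507 to 0.96. Among 20 measured NF-κB targets CXCL3 rose and no other passed, with a median of -0.08. CXCL8, the gene of interleukin 8, stood at 5.26, 4.37 and 3.09 TPM, against 2.07, 4.18 and 2.63 TPM, and did not pass. These are levels of messenger RNA, and a p that misses the threshold does not show that values did not differ.

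AP-1 and ERK pathway genes rose in part. Of 17 measured AP-1, immediate early and small MAF genes 5 rose and 0 fell, with a median of 0.71. FOSL1, the AP-1 subunit FRA1, stood at 252, 261 and 306 TPM at 0.63 µM, against 137, 96.7 and 166 TPM (change 1.06, SE 0.190, limma adjusted p = 0.0119). MAFF, MAFG and MAFK, small MAF proteins that pair with NRF2 and related factors, rose by 1.22, 0.88 and 0.73, and EGR1, an immediate early zinc finger factor, by 1.32. Of 21 ERK output genes 5 rose and 0 fell, among them DUSP5, a phosphatase that acts on ERK (1.77), and MYC (1.61). FOSL1 and LIF, already counted on the AP-1 and secreted lists, were also among these 5. MYC stood at 6.10, 10.1 and 5.58 TPM, against 1.61, 0.84 and 2.83 TPM. The count of AP-1 calls was 0 without 0.63 µM replicate 3, 5 without untreated replicate 3 and 2 without each other library. FOSL1 (adjusted p from 0.00646 to 0.07385 over the 6 refits) and DUSP5 (0.00556 to 0.0663) were lost without 0.63 µM replicate 3 alone, and MYC (0.00862 to 0.0600) without untreated replicate 2 and 0.63 µM replicate 2. EGR1 passed in none of the 6 refits (limma adjusted p from 0.0501 to 0.184). MAFG was kept in 1 (0.0491 to 0.134) and MAFF in 5 (0.0105 to 0.0610).

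Genes of cell state and adhesion gave scattered calls. Of 25 measured markers of dedifferentiated melanoma 5 rose, FOSL1 again included, with a median of 0.22. Among them AXL and EGFR, both receptor tyrosine kinases, rose by 1.03 and 0.85. AXL stood at 106, 128 and 144 TPM at 0.63 µM, against 75.5, 37.1 and 80.4 TPM in untreated cells, and the groups did not overlap. CCN1, a matricellular target of YAP, stood at 123, 112 and 140.5 TPM, against 32.5, 32.9 and 25.6 TPM (change 2.02, limma adjusted p = 0.0214). MMP14, a membrane-bound protease, rose by 1.36. CAVIN1, a coat protein of caveolae, stood at 107, 110 and 76.0 TPM, against 195, 198 and 174 TPM (change -0.96, adjusted p = 0.0104). None of 11 measured genes of the melanocyte lineage passed, MITF included (change -0.67, adjusted p = 0.251). Without 0.63 µM replicate 3 the dedifferentiation list held 1 call, the YAP list 0 of its 2 and the caveolae list 0 of its 1, with adjusted p of 0.133 for AXL (range 0.0128 to 0.133), 0.106 for CCN1 (0.0413 to 0.106) and 0.0615 for CAVIN1 (0.0134 to 0.0615). AXL was also lost without 0.63 µM replicate 2, CCN1 without 0.63 µM replicate 1, and MMP14 without untreated replicate 1 and 0.63 µM replicates 2 and 3 (0.0249 to 0.124).

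Both ferritin genes, among the more abundant transcripts of these cells, rose. FTH1 (chr11:61959718-61967660, minus strand), which encodes the heavy subunit of ferritin, the iron store, stood at 6550, 6926 and 8384 TPM at 0.63 µM, against 2950, 2263 and 2717 TPM (change 1.46, SE 0.132, limma adjusted p = 3e-05). FTL, the light chain, stood at 976, 984 and 1261 TPM, against 599, 387 and 715 TPM (change 0.96, SE 0.184, adjusted p = 0.0157). FTH1 was kept in every refit, whereas FTL was lost without 0.63 µM replicate 3 (adjusted p from 0.00654 to 0.0961). The ferritin pair made up the 2 rises among 17 measured iron genes and also the 2 rises among 24 NRF2 and antioxidant genes, whose medians were 0.23 and 0.33. The pseudogene FTH1P8 was also called higher (change 2.60, kept in 1 refit), and reads of FTH1 and its processed copies could have been divided between them. MT2A, a metallothionein that binds zinc, stood at 9094, 9226 and 14541 TPM, against 6120, 4673 and 7549 TPM (change 0.83, limma adjusted p = 0.0228), as the 1 call among 7 measured genes of that list, lost without untreated replicate 2 and 0.63 µM replicate 3 (0.00862 to 0.104).

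Genes of the endoplasmic reticulum, lysosome and autophagosome changed in few members. HERPUD1, a component of reticulum-associated degradation, stood at 40.4, 36.0 and 48.7 TPM at 0.63 µM, against 12.7, 10.3 and 15.98 TPM (change 1.62, SE 0.330, limma adjusted p = 0.0217). XBP1, the transcription factor of the IRE1 branch, stood at 34.0, 32.01 and 24.3 TPM, against 14.9, 8.44 and 14.7 TPM (change 1.21, adjusted p = 0.0322). These were the 2 rises of 25 measured members, whose median was 0.28. Of 35 lysosomal genes 2 rose, among them PSAP, the saposin precursor (0.94). WIPI1, which binds lipids on forming autophagosomes, and the autophagy receptor SQSTM1 rose by 1.90 and 0.73 as 2 of 30. Each of these 3 lists held 0 calls without 0.63 µM replicate 3, the reticulum and lysosome lists also without 0.63 µM replicate 1, and the autophagy list also without untreated replicate 2. With all libraries the 16 mitochondrial chaperones and proteases held 0 calls.

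Cytosolic chaperones of the heat shock response were the list with the most genes lower. Of 22 measured members 7 fell and 0 rose, with a median of -0.60. HSPA1A (ENSG00000204389, chr6:31815464-31817946, plus strand), the stress-inducible HSP70, stood at 11.9, 16.7 and 2.90 TPM at 0.63 µM, against 60.55, 48.4 and 128 TPM in untreated cells (change -2.93, SE 0.524, limma adjusted p = 0.0119). The groups were well apart although each was spread more than 2-fold. Its neighbour HSPA1B changed by -1.64, and as the 2 genes are nearly identical in sequence, how reads were split between them is uncertain. HSPA8, the constitutive HSC70, stood at 481, 502 and 339.7 TPM, against 897, 1292 and 829 TPM (change -1.18, SE 0.261, adjusted p = 0.0309). CHORDC1, a partner of HSP90, stood at 42.55, 41.65 and 31.6 TPM, against 81.0, 136 and 80.9 TPM (change -1.31, SE 0.284, adjusted p = 0.0288). The co-chaperones DNAJA1 and DNAJB1 changed by -1.33 and -1.21 and HSP90AA1, the inducible HSP90, by -1.24.

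Several of these chaperones were highest in untreated replicate 2, the library least like its group. HSP90AA1 stood at 1477, 1474 and 902 TPM at 0.63 µM, against 2334, 5469 and 2030 TPM, and HSPH1, an exchange factor of HSP70 that did not pass, at 220, 262 and 135 TPM, against 329, 835 and 324 TPM. With that library left out the list held 2 calls in place of 7. It held 7 without untreated replicate 1 or 3, and with treated replicate 1, 2 or 3 left out it held 1, 2 and 0, while its median was -0.45 without 0.63 µM replicate 3 and -0.53 without untreated replicates 2 and 3. HSPA1A was called in 5 of the 6 refits, with adjusted p from 0.01085 to 0.0609, and lost the call without 0.63 µM replicate 3. HSPB1, AHSA1, FKBP4 and HSF1 had changes between -0.07 and 0.31 and did not pass. Of 14 genes of the chaperonin CCT and its helper prefoldin, CCT5 fell (-0.72) and PFDN2 rose (1.175), the list having 0 calls without untreated replicate 2 or 0.63 µM replicate 3. Of 31 proteasome subunits PSMC1 and PSMD12 fell, by 1.09 and 0.97 on the log2 scale, and both were highest in untreated replicate 2. The proteasome list held 0 calls without that library or any 1 treated library, and 5 without untreated replicate 3.

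The promoters of HSPA8 and CHORDC1 are shown because they hold more than 1 match to a heat shock element, which was searched on both strands as GAA, TTC and GAA in this order with 2 free bases between neighbours. The 250 bases before their RefSeq starts (GRCh38.p14) lie at chr11:123062137-123062386 and chr11:90223050-90223299, both on the minus strand, and are given on the strand of the gene with matches in capitals.
HSPA8: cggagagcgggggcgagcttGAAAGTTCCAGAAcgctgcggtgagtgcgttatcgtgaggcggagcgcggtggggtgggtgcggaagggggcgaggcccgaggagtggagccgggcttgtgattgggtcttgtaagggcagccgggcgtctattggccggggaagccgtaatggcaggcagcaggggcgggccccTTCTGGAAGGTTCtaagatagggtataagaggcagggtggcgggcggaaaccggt
CHORDC1: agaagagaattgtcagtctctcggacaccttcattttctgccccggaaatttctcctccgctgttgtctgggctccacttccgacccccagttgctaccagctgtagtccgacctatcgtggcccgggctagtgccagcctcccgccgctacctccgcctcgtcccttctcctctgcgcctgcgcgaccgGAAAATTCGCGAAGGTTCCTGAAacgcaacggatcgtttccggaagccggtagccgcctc
HSPA8 has its matches 230 and 55 bases before the start, and CHORDC1 has 3 that overlap, beginning 60, 55 and 50 bases before it. The letters occurred in 133 of 27305 promoters (0.487%), in 29 of 10093 matched to tested genes (0.287%) and in 5 of 20 genes of the chaperone list. DNAJA1, also called lower, had a match beginning 3 bases after its start, and SERPINH1 and DNAJB6, with 1 match each, did not pass. Of 86 matched genes called lower 3 held the letters (3.49%), the same HSPA8, CHORDC1 and DNAJA1, and of 133 called higher 1 did (0.752%).

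Cell cycle lists had negative medians and few calls, all of them lower. CCNB1 (chr5:69167010-69178245, plus strand), the mitotic cyclin B1, stood at 105, 118 and 81.7 TPM at 0.63 µM, against 242, 209.7 and 213 TPM (change -1.13, SE 0.183, limma adjusted p = 0.0057), and it was the 1 call among 18 genes of mitotic entry, whose median was -0.35, or -0.18 without 0.63 µM replicate 3. CDK1, its kinase partner, had a change of -1.03 (SE 0.297, adjusted p = 0.0826) and MKI67, the proliferation marker Ki-67, of -0.73 (adjusted p = 0.236). Of 28 genes of mitotic kinesins, spindle and cytokinesis 4 fell, with a median of -0.74. BIRC5, the chromosomal passenger survivin, stood at 77.1, 73.0 and 24.6 TPM, against 105, 183 and 129 TPM (change -1.37, adjusted p = 0.0389), and PRC1, which bundles the central spindle, changed by -0.87. None of 27 kinetochore and checkpoint genes passed, and their median was -0.41. GMNN, the gene of the licensing inhibitor geminin, stood at 46.3, 43.0 and 44.4 TPM, against 103, 249.5 and 96.6 TPM (change -1.59, SE 0.272, adjusted p = 0.00908). With GINS4, a subunit of the replicative helicase (change -2.46), it made up the 2 falls among 38 replication genes, but GINS4 passed in none of the 6 refits (adjusted p from 0.0649 to 0.15).

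CDKN2C, which encodes the CDK4 and CDK6 inhibitor p18, stood at 5.48, 4.66 and 5.51 TPM, against 14.1, 16.2 and 21.2 TPM (change -1.53, SE 0.225, limma adjusted p = 0.00291). CDKN1C, the inhibitor p57, also fell (-1.61) and was lost without untreated replicate 1 and 0.63 µM replicate 3 (adjusted p from 0.0195 to 0.0961), while CDKN1A, the inhibitor p21, had a change of 0.49 (adjusted p = 0.593). Among p53 targets and GADD45 genes 3 of 29 rose, SESN2, GADD45A (1.47) and BTG1 (0.78), an antiproliferative factor that passed in none of the 6 refits (adjusted p from 0.0549 to 0.211). The untreated level of GADD45A, a sensor of DNA damage, was 98.2 TPM in replicate 2 against 34.8 and 31.4 TPM in the others, and its adjusted p ran from 0.000265 without that library to 0.143 without 0.63 µM replicate 3. H4C3, a replication-dependent histone H4 gene, stood at 1030, 838 and 569 TPM, against 2698, 1938 and 2529 TPM (change -1.58, SE 0.238, adjusted p = 0.0031). All 3 treated libraries were well below all untreated ones. With H1-1 (change -2.20) it made up the 2 falls among the 18 measured members of a list of histone genes with the histone mRNA factor SLBP, whose median was -0.91 and of which 17 had a negative change. CCNB1, GMNN, CDKN2C and H4C3 were kept in all 6 refits. The spindle list held 0 calls without untreated replicate 2 or 0.63 µM replicate 3, with adjusted p from 0.0310 to 0.133 for BIRC5, and H1-1 was kept in 1 refit (0.0389 to 0.173).

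Mitochondrial and ribosomal lists held few calls, most of which were lost with 1 library left out. MT-ND4, a subunit of complex I encoded by mitochondrial DNA, stood at 5821, 6360 and 2129 TPM at 0.63 µM, against 2141, 1183 and 887 TPM (change 1.71, SE 0.362, limma adjusted p = 0.0262). MT-CO2 and MT-ND4L also rose, making 3 of 13 members with a median of 0.42. Without untreated replicate 2, 0.63 µM replicate 1 or 0.63 µM replicate 2 the list held 0 calls, and its median was 0.82 without 0.63 µM replicate 3, 0.18 under quantile normalization and -0.26 without untreated replicates 2 and 3, in the samples whose mitochondrial share of TPM differed as given above. The part of that share in the result was not tested. Of 45 nuclear genes of the respiratory chain SDHD (1.56) and UQCRC1 (0.84) rose, with 0 calls in that list without untreated replicate 2 or 0.63 µM replicate 3. RPL23A, a protein of the large ribosomal subunit, stood at 2355, 2810 and 3493 TPM, against 1395, 1590 and 1546 TPM (change 0.92, SE 0.136, adjusted p = 0.00297) and was kept in every refit. With RPS28 (0.57) it made up the 2 rises among 65 ribosomal protein genes, which have many processed copies in the genome, and their median of 0.21 was 0.08 under quantile normalization and 0.13 without 0.63 µM replicate 3. SNHG3, GAS5 and ZFAS1, host transcripts of small nucleolar RNAs, rose by 0.84 to 0.91 as 3 of 19 and held 0 calls without untreated replicate 1 or 2 or 0.63 µM replicate 1 or 3. Of 30 genes of ribosome biogenesis and MYC, NCL, the gene of nucleolin, fell (-0.96) and MYC rose.

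**Figure D4:**
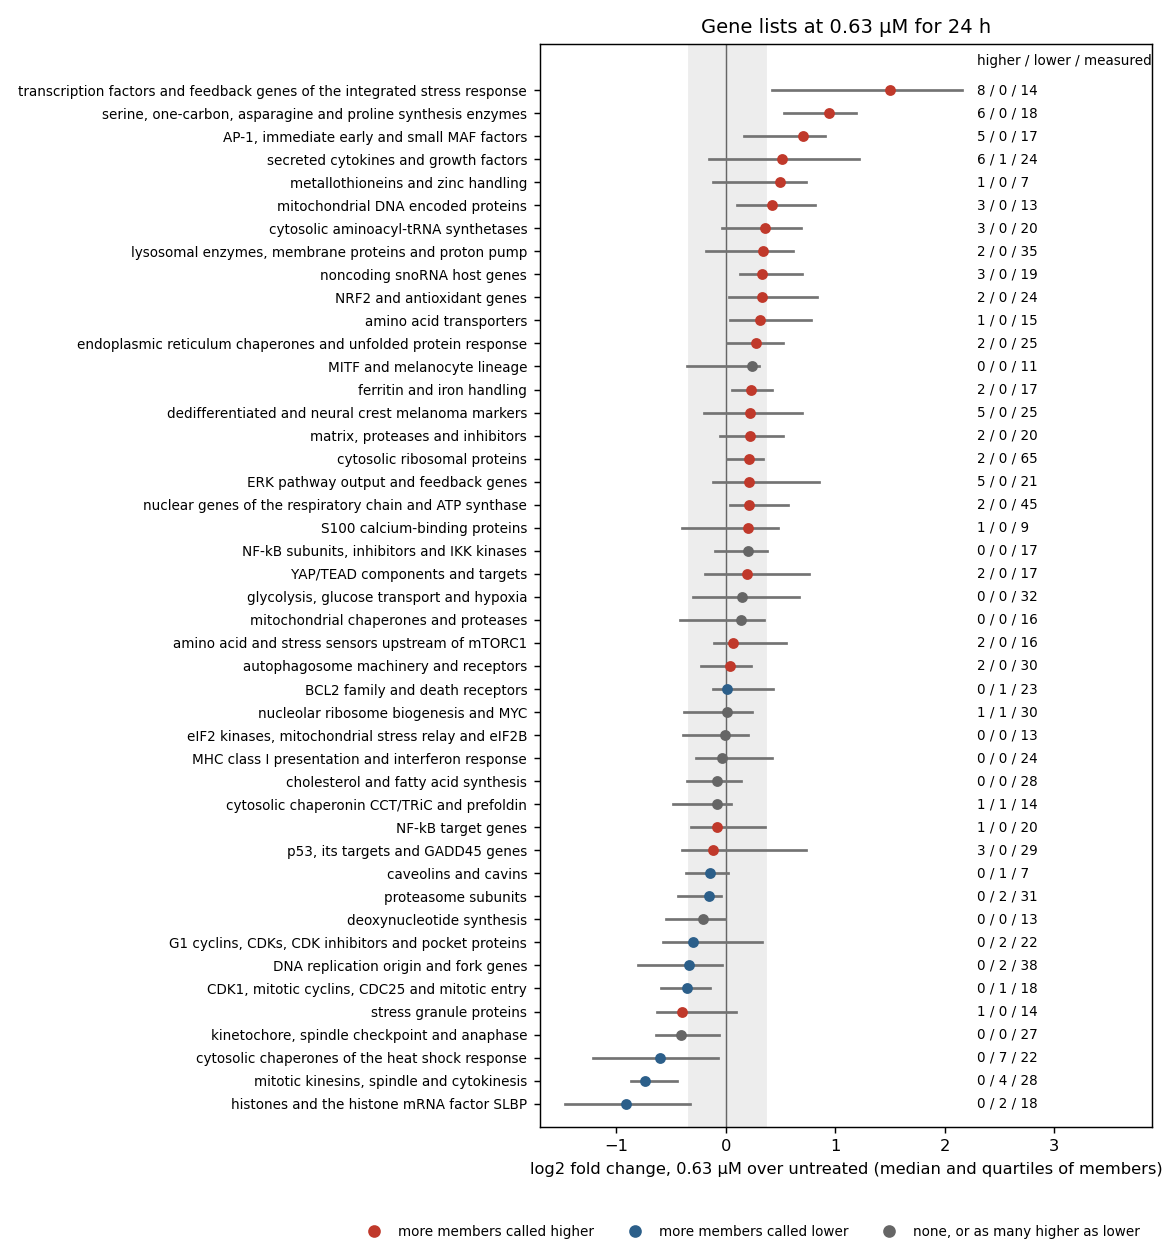
Median (dot) and quartiles (line) of the log2 fold change of the measured members of each gene list, 0.63 µM over untreated at 24 h, ordered by median, beside the numbers called higher and lower and the number measured. The grey band holds the quartiles of all 14936 genes, -0.34 to 0.37, and dots are red or blue where more members were called higher or lower.

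Further lists with no call in either direction were cholesterol and fatty acid synthesis (28 genes, median -0.08), glycolysis and hypoxia (32, 0.15), deoxynucleotide synthesis (13, -0.21) and MHC class I presentation with interferon response (24, -0.03). In glycolysis and hypoxia NDRG1, a stress-responsive gene, came nearest (change 1.37, limma adjusted p = 0.0564). The other large change there was GAPDH at 1.36 (adjusted p = 0.368), which was -0.057 without untreated replicate 2. Among 23 BCL2 family and death receptor genes BIRC5 fell, while BBC3, the BH3-only protein PUMA, had a change of 0.96 and did not pass (adjusted p = 0.126). S100P, a calcium-binding protein, was the 1 rise among 9 S100 genes at 18.8, 17.7 and 78.1 TPM, against 5.90, 0 and 0 TPM. Its change of 4.02 (limma adjusted p = 0.0269) was lost without untreated replicate 2 or 3 or 0.63 µM replicate 3 (0.0118 to 0.143).

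Most called genes, 139 of 203 higher and 99 of 123 lower, were on none of the lists. VGF, the precursor of secreted neuropeptides, stood at 58.6, 73.7 and 69.0 TPM at 0.63 µM, against 22.2, 14.0 and 15.95 TPM (change 1.91, SE 0.190, limma adjusted p = 8.52e-05). ESM1, a secreted proteoglycan of endothelium that is also made by tumour cells, stood at 52.55, 58.5 and 64.8 TPM, against 20.15, 22.7 and 11.53 TPM (change 1.69, SE 0.201, adjusted p = 0.000407). LURAP1L stood at 9.99, 9.62 and 11.45 TPM, against 0.84, 1.71 and 1.52 TPM (change 2.28, adjusted p = 0.00297). In each of these 3 genes the groups did not overlap, and the calls were kept in all 6 refits. UPP1, uridine phosphorylase, rose by 2.21, with untreated libraries spread between 5.38 and 30.2 TPM, and was lost without 0.63 µM replicate 3 (adjusted p from 0.000983 to 0.0797).

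Among genes lower on no list, KANK2 (chr19:11164267-11197791, minus strand), which links talin at adhesions to the cell cortex, stood at 11.1, 21.9 and 9.84 TPM, against 56.1, 55.5 and 43.5 TPM (change -1.86, SE 0.267, limma adjusted p = 0.00244). CBX1, the heterochromatin protein HP1β, stood at 66.1, 64.7 and 39.7 TPM, against 139.99, 209 and 126 TPM (change -1.46, SE 0.198, adjusted p = 0.00133). Both were kept in every refit, and CBX1 alone of the genes lower also passed under each other setting except the compared groups only. NR2F1, an orphan nuclear receptor of the neural crest, changed by -2.02, and its untreated value was highest in replicate 2 (46.4, 125.23 and 44.98 TPM). It was lost without that library, 0.63 µM replicate 2 and 0.63 µM replicate 3 (adjusted p from 0.0342 to 0.178). Very short non-coding RNAs gave several of the largest falls. RNU6-1016P, annotated as a U6 snRNA pseudogene, was listed at 0 in all 3 treated libraries and at 71.6, 36.2 and 137 TPM in untreated ones, so no fold is given. It was also listed at 0 in all 3 untreated libraries at 48 h, and averaged 74.4 TPM at 0.32 µM. SCARNA22, a guide RNA of Cajal bodies, stood at 161, 204 and 229 TPM, against 889, 778 and 530 TPM (change -1.86), and kept its call in 1 refit. TPM divide by transcript length, and how fully such short RNAs are captured by 3′ libraries could not be checked.

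The next higher dose differed from 0.63 µM in 226 genes (1.51%), with 70 higher (0.469%) and 156 lower (1.04%) at 1.25 µM for 24 h, or 112 and 154 under quantile normalization. The comparison shares its 0.63 µM libraries with the one above, so values are given side by side. PPP1R15A averaged 19.65 TPM in untreated cells, 28.0 TPM at 0.32 µM, 94.9 TPM at 0.63 µM and 225 TPM at 1.25 µM, and the step from 0.63 to 1.25 µM passed (limma adjusted p = 0.00222), as it did for IL24 (adjusted p = 0.00984). DDIT3 averaged 230 against 144 TPM, CHAC1 26.65 against 31.8 TPM and TRIB3 72.9 against 60.5 TPM, and these steps did not pass. MTHFD2 was lower at 1.25 µM, at 159 ± 44.1 against 276 ± 29.03 TPM at 0.63 µM (SD, n = 3 each), in limma at an adjusted p of 0.0395. DDIT4 likewise averaged 38.5 TPM at 1.25 µM and 73.4 TPM at 0.63 µM (limma adjusted p = 0.042). Among the doses, MTHFD2 and DDIT4 thus averaged highest at 0.63 µM, and PPP1R15A and IL24 at 1.25 µM.

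Of the genes named for this step, TXNIP, an inhibitor of thioredoxin, was 3.06 higher on the log2 scale at 1.25 µM (32.7 ± 13.4 against 2.94 ± 1.45 TPM). SPRR2D, a cornified envelope protein, was 2.98 higher (18.7 against 1.48 TPM). HSPA1A averaged 79.0 TPM in untreated cells, 40.9 TPM at 0.32 µM, 10.5 TPM at 0.63 µM and 50.9 TPM at 1.25 µM, and the step from 0.63 to 1.25 µM was 2.31 (SE 0.524, limma adjusted p = 0.0371). THBS1, the matrix protein thrombospondin 1, averaged 73.6 TPM in untreated cells, 65.9 TPM at 0.63 µM and 10.2 TPM at 1.25 µM (step -2.56, SE 0.249, limma adjusted p = 0.000109). CEP152, a centriole protein, averaged 57.8 TPM in untreated cells, 43.9 TPM at 0.63 µM and 7.79 TPM at 1.25 µM (step -2.33). CCNB1, PRC1, NUSAP1 and H4C3 were also lower at 1.25 than at 0.63 µM, with limma adjusted p from 0.0103 to 0.0348. Leaving out libraries gave 82 to 190 calls for this step, the lowest without 1.25 µM replicate 3. The count was 89 with 0.63 µM replicate 1 left out and 107 with replicate 2 of that dose left out.

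**Figure D5:**
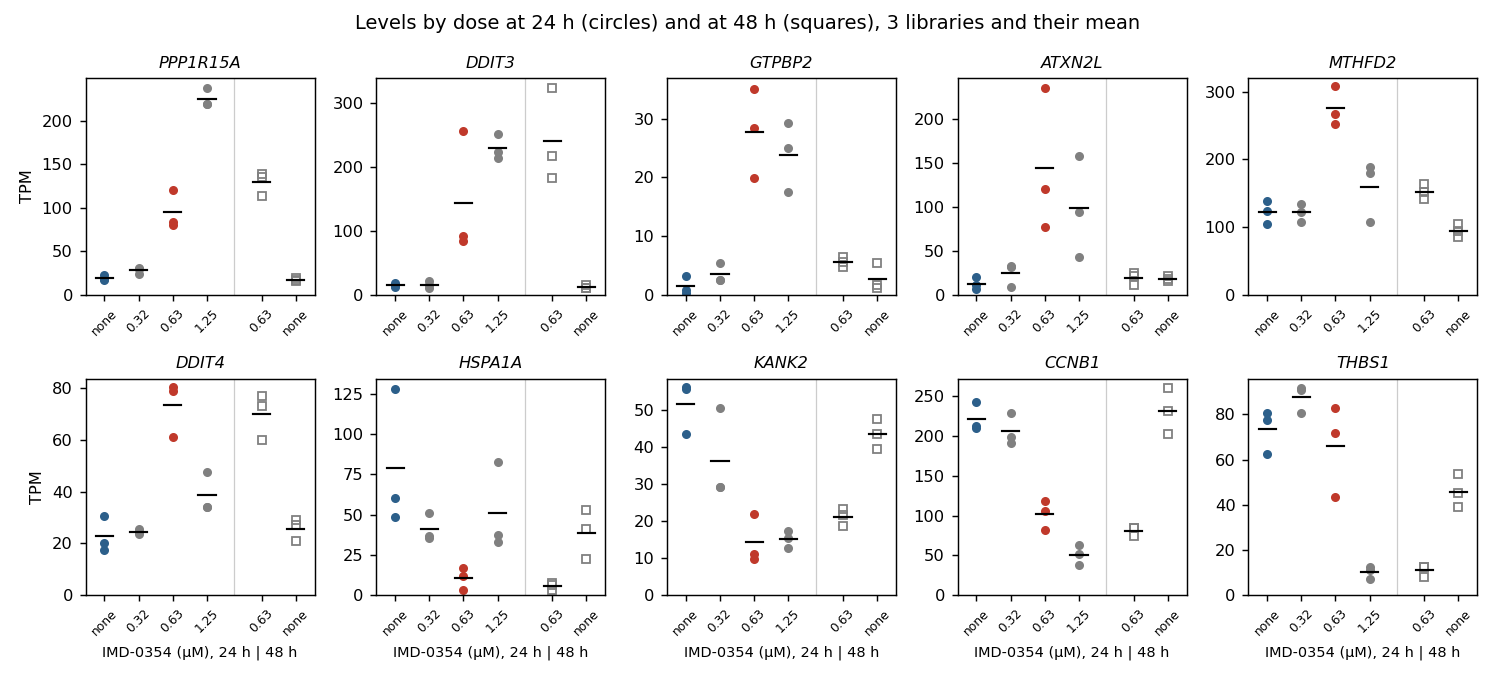
TPM of 10 genes by dose at 24 h (circles) and for 0.63 µM and untreated cells at 48 h (open squares), with 3 libraries and their mean (bar) per group and 0.63 µM in red and untreated in blue at 24 h. PPP1R15A climbs through the doses to 225 TPM, MTHFD2 and DDIT4 peak at 0.63 µM, and HSPA1A at 24 h averages lowest at 0.63 µM.

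The step from 0.32 to 0.63 µM moved 83 genes (0.556%), 60 higher (0.402%) and 23 lower (0.154%) at 0.63 µM, or 42 and 36 when rescaled without the chromosome 21 transcripts. The 5 largest rises among genes with a mean of at least 5 TPM were those of GDF15, DDIT3, GTPBP2, ATXN2L and IL24. GDF15 averaged 128 TPM at 0.63 µM and 3.32 TPM at 0.32 µM (4.54, SE 0.576, limma adjusted p = 0.00314). DDIT3 averaged 144 and 16.1 TPM (2.93, adjusted p = 0.00257), and GTPBP2, ATXN2L and IL24 were 2.71, 2.56 and 2.54 higher. At 0.32 µM DDIT3 averaged 16.1 TPM against 14.9 TPM in untreated cells, and GDF15 3.32 against 3.8 TPM. SOS1, which activates RAS, and PNRC2, a cofactor of messenger RNA decay, were 1.48 and 1.39 lower at 0.63 than at 0.32 µM, and KANK2 was 1.32 lower. The count was 18 without 0.63 µM replicate 3, 29 and 41 without 0.32 µM replicates 3 and 1, 51 without 0.63 µM replicate 1 and at most 64 with any 1 library left out.

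At 48 h the same dose was compared with its own untreated cells. The groups compared share no library with those at 24 h, but both tests use the spread of each gene over all 18 libraries. Calls at 24 h and 48 h are therefore not independent. Of the 203 genes called higher at 24 h, 79 were called higher at 48 h (38.9% of the list at 24 h and 27.1% of the 291 at 48 h), 1 was called lower and 172 had the same sign. Of the 123 called lower, 56 were called lower at 48 h (45.5%, and 6.6% of 849) and 113 had the same sign. Over all 14936 genes tested, 291 were called higher and 849 lower at 48 h. How many of all genes had the same sign at both times was not counted. DDIT3 changed by 3.01 at 24 h and by 4.18 at 48 h, GDF15 by 4.30 and 6.12, FTH1 by 1.46 and 2.24, and IL24 by 3.34 and 4.96. None of these differences between the times passed. ATXN2L stood at 19.5 TPM at 0.63 µM and 18.25 TPM in untreated cells at 48 h (change 0.03), GTPBP2 at 5.57 and 2.75 TPM (0.97) and CCN1 at 26.7 and 28.0 TPM (-0.11), none of which passed at 48 h. The difference between the times did not pass for ATXN2L (limma adjusted p = 0.11), GTPBP2 (0.109) or CCN1 either, so no effect particular to 24 h is shown for them. The difference of effects between 24 and 48 h passed for 5 genes in limma (0.0335%), with the 24 h effect above the 48 h effect for 3 (0.0201%) and below it for 2 (0.0134%). Among them were CAV1, CKS1B and HSPA5.

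Named chaperone and cell cycle genes were called lower at 48 h. HSPA1A changed by -2.62 at 48 h (5.42 ± 2.23 against 38.8 ± 15.5 TPM, SD, n = 3 each, limma adjusted p = 0.00576), CCNB1 by -1.50 and CDK1, which did not pass at 24 h, by -1.55 (adjusted p = 0.00443). CDKN2C changed by -1.53 at 24 h and -2.90 at 48 h. For HSPA1A, CCNB1, CDK1 and CDKN2C the difference between the times did not pass (limma adjusted p from 0.112 to 0.904). Over lists, the effect at 24 h minus that at 48 h had medians of 0.88 for mitotic entry, 0.85 for kinetochore genes, 0.81 for replication and 1.03 for deoxynucleotide synthesis, beside 0.17 over all genes. Medians above that of all genes were not particular to cell cycle lists. They were 0.68 for caveolae, 0.67 for cholesterol and fatty acid synthesis, 0.54 for YAP genes and 0.53 for nuclear respiratory genes. Outside the cell type markers, the lowest were -0.34, for snoRNA host genes and for p53 and GADD45 genes. The median over all genes was 0.005 after median-of-ratios scaling, and list medians under that scaling are not given.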

How the data were processed

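The deposited values are TPM, made by the authors and given by gene for each library, with totals between 999999.1 and 1000000.5. The submitters' processing notes name cutadapt 1.18, STAR 2.7, RSEM 1.3.1 and DESeq2 without roles. The genome build and gene annotation were not given in the sources used here, and the number of reads behind a value are unknown. TPM divide by transcript length, although per the labels' protocols the libraries are of the 3′ end kind (QuantSeq), where reads come from one end of a transcript. This division raises the levels of short transcripts relative to long ones.

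Identifiers were matched by Ensembl number to symbols (56558 of 60504) and to GENCODE 29 coordinates (56996). Genes reaching 1 TPM in 3 or more of the 18 libraries were tested with limma 3.58.1 (statmod 1.5.0, R 4.3.3) on log2(TPM + 1), with a mean-variance trend, 1 mean for each of 6 groups and 12 residual degrees of freedom. Tests were 2-sided, with Benjamini-Hochberg adjustment over 14936 genes and calls at an adjusted p under 0.05. The script was tested on simulated data with changes set in 100 genes for each of 2 sizes. It called 35% of changes of 1 and 89% of changes of 2 on the log2 scale, with 10 false calls among 134. Many changes of 2-fold were thus missed in the simulated data. Contrasts were 0.63 µM against untreated at 24 h, 1.25 against 0.63 µM, 0.63 against 0.32 µM, and the effect of 0.63 µM at 24 h against that at 48 h. Calls of 0.63 µM against untreated at 48 h are given as well, but without the refits and alternative settings given for the other contrasts. Promoter sequences are from RefSeq (GRCh38.p14).

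Genes were named by rule. Among called genes with a mean of at least 5 TPM in a group and groups that do not overlap, these were the 15 largest changes in each direction, the 10 smallest adjusted p and the 10 largest changes among calls kept with each library left out. Up to 4 called members of each gene list (or the 2 largest changes), 15 pathway genes and the 5 largest changes in each direction of the other contrasts were added. List members named beyond these, among them NUPR1, CEBPG, SHMT2, GPT2, HSP90AA1, HSPA8, HSPH1, MAFK, EGFR and TGFA, were chosen after their values were seen. A few called genes are not reported here. The members of the comparison and the lists were chosen with earlier results of these data known. Alternatives changed the pseudocount (0.1 or 5 TPM), the filter (none or 5 TPM), the scaling, the variance model, the libraries fitted, a replicate block and library weights.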

Additional observations from a re-analysis of the deposited data

Results flagged for a closer look

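The effect of 0.63 µM IMD-0354 on 3 genes named here differed between 24 h and 48 h in limma's test of the difference itself. That test compares 4 groups of 3 libraries and takes its spread from all 18 libraries. With only the 12 compared libraries in the fit 0 genes passed. CAV1, the coat protein caveolin 1, had changes of -0.47 at 24 h and -1.95 at 48 h on the log2 scale, a difference (24 h minus 48 h) of 1.48 (limma adjusted p = 0.00465). CKS1B, a subunit of cyclin-dependent kinases, averaged 601 TPM at 0.63 µM and 476 TPM in untreated cells at 24 h, and 251.03 and 473 TPM at 48 h, a difference of 1.25 (limma adjusted p = 0.0361). HSPA5, the reticulum chaperone BiP, had changes of 0.45 at 24 h and 2.07 at 48 h, a difference of -1.62 (limma adjusted p = 0.0217), with means of 244 TPM at 0.63 µM and 183 TPM in untreated cells at 24 h and of 514 and 123 TPM at 48 h. None of the 3 passed at 24 h alone, and over all genes the median of this difference was 0.17. The rule picked 4 genes from this test, these 3 among them. Of those 4, 3 lost the call without untreated replicate 1 or 3 or 0.63 µM replicate 2 or 3 at 48 h. Leaving out untreated replicate 2 at 48 h lost 1, and all 4 were kept without 0.63 µM replicate 1 at 48 h. The 24 h libraries mattered as well. Over all genes this test made 2 calls in place of 5 without untreated replicate 1 or 0.63 µM replicate 1 or 2 at 24 h. It made 10, 18 and 13 calls without untreated replicate 2, untreated replicate 3 and 0.63 µM replicate 3 at 24 h.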

How the results depend on the processing

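The 326 calls at 0.63 µM became 175 without a filter on low values, 200 without the mean-variance trend, 86 with the 24 h libraries only and 21 without untreated replicates 2 and 3, and 51 to 490 with 1 library left out. Fits of the compared groups only made 0 calls in limma for each of 4 contrasts. Genes at an unadjusted limma p under 0.05 numbered 1809, 2144, 2022 and 1708. These counts were for 0.63 µM against untreated at 24 h, 1.25 against 0.63 µM, 0.63 against 0.32 µM and 24 h against 48 h. The 226 calls of 1.25 against 0.63 µM were 350 with library weights and 82 to 190 with 1 library left out, and the 83 of 0.63 against 0.32 µM were 126 and 18 to 64. The 5 genes that differed between 24 and 48 h became 8 without the filter, 3 under median-of-ratios scaling, quantile normalization or without the chromosome 21 transcripts (1 higher and 2 lower in each), 2 without the trend, 151 with library weights and 2 to 18 with 1 library left out. The other alternatives kept each count within 1.5 times. Samples with the same replicate number correlated at 0.058, 0.003 and 0.071 in their deviations from the group means, so the numbers were not taken to pair them. A replicate block gave 420, 287, 121 and 4 calls for the 4 contrasts. Over 158 results on single genes, 2363 of 3125 values kept direction and call, 745 lost the call, 8 gained it and 9 turned, all in genes that did not pass. NFKB1 was -0.018 without the chromosome 21 transcripts, -0.032 without untreated replicates 2 and 3 and -0.16 to 0.25 with 1 library left out. RELB was -0.089 without untreated replicates 2 and 3, and MAP3K14 was 0.46 there and 0.030 with library weights. With 1 library left out GAPDH ran from -0.057 to 2.17 and CDKN1A from -0.021 to 0.94. The cause of these changes was not tested. Depth is unknown, so its limit on low genes could not be stated.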

Other observations

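Further genes on none of the lists kept their limma call with each of the 6 libraries left out and were picked here after their values were seen. NIBAN1, a protein induced by stress that acts on translation, stood at 20.5, 23.3 and 23.15 TPM at 0.63 µM, against 6.45, 7.60 and 8.18 TPM in untreated cells (change 1.47, SE 0.219, limma adjusted p = 0.00297). ARHGEF2, an exchange factor for RhoA, stood at 165, 215 and 272 TPM, against 81.02, 69.9 and 78.8 TPM (change 1.47, SE 0.239, limma adjusted p = 0.00617). Replicate 3 was the highest treated library of ARHGEF2, and the groups were apart. TMEM158, a membrane protein known to be induced by RAS, stood at 140.25, 143 and 177 TPM, against 70.6, 53.6 and 40.6 TPM (change 1.49, SE 0.236, limma adjusted p = 0.00505). YIF1A, of transport between reticulum and Golgi, stood at 193, 213 and 209 TPM, against 96.7, 72.2 and 80.8 TPM (change 1.298, SE 0.17, limma adjusted p = 0.00112). CD55, an inhibitor of complement on the cell surface, and RBCK1, the ubiquitin ligase subunit HOIL-1 of the linear ubiquitin chain complex, rose by 1.06 and 0.75.

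NANOS1, an RNA-binding repressor of translation, was near 0 at 0.63 µM, with 0.05, 0.12 and 0.49 TPM, against 5.72, 2.76 and 3.89 TPM in untreated cells (change -2.05, SE 0.294, limma adjusted p = 0.00244). It averaged 0.38 ± 0.35 TPM at 0.32 µM and 0.22 ± 0.21 TPM at 1.25 µM (SD, n = 3 each), so all 3 doses stood below the untreated cells. RNF139-DT, a lincRNA, stood at 2.15, 3.29 and 3.54 TPM at 0.63 µM, against 0.33, 0.13 and 0.05 TPM in untreated cells (change 1.76, SE 0.253, limma adjusted p = 0.00244). Its means were 0.07 TPM at 0.32 µM and 0.08 TPM at 1.25 µM.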
